A study of Mus musculus with 4 samples.

Results

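Knockout clone 2 of the Mgat5 series was compared with both control samples, gene by gene. The cells were MC38, a mouse colon adenocarcinoma line. RNA of each sample was hybridised to its own Clariom S mouse array, on which a biotin label is read in 1 colour. MOCK denotes cells that received an empty vector, WT denotes untransfected cells, and clone 1 and clone 2 are CRISPR-Cas9 knockout clones titled KO T5. No agent, time point or second genotype is named for any sample. The comparison used 3 of the 4 arrays, and clone 1 served as a reference only. A gene was a member when clone 2 lay at least 1 log2 unit (2-fold) from the mean of MOCK and WT after quantile normalization, which gives every array the same distribution of signals. Of 19505 genes measured, 1926 met this, 1043 of them higher in clone 2 (5.35% of genes) and 883 lower (4.53%). Clone 2 is a single array of a single clone, so no difference below carries a test or an error of its own, and the distance between MOCK and WT is given as the measure of spread. What cloning did and what loss of Mgat5 did cannot be told apart, and whether each array had a culture of its own is not in the labels.

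Mgat5 encodes a glycosyltransferase of the Golgi, GnT-V, whose product is the beta-1,6-linked antenna of complex N-glycans on cell surface proteins. The largest groups of members belong to other pathways. Type I interferons act through a receptor and JAK kinases on STAT proteins, which together with IRF9 bind interferon response elements in the promoters of antiviral genes. Cholesterol synthesis is controlled by SREBP-2, which enters the nucleus when sterol in the endoplasmic reticulum is low and binds sterol elements in the promoters of nearly every enzyme of the pathway.

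Promoter sequences are shown for the interferon genes because the members that were higher in clone 2 included many of this class, and the sequence lets the element be seen. The first 3 are those of the antiviral genes with the largest differences. Those of the GTPase genes Irgm2 and Igtp were added after their values were seen. Each runs 5′ to 3′ on the gene's own strand from 250 bases before to 50 after the RefSeq start (GRCm38.p6), and capitals mark any match on either strand to the interferon response element searched, GAAANNGAAA. Oasl1 lies at chr5:114922990-114923289 on the plus strand, Rsad2 at chr12:26456403-26456702 on the minus strand and Phf11d at chr14:59365441-59365740 on the minus strand. Irgm2 lies at chr11:58214727-58215026 and Igtp at chr11:58199306-58199605, both on the plus strand.
Oasl1: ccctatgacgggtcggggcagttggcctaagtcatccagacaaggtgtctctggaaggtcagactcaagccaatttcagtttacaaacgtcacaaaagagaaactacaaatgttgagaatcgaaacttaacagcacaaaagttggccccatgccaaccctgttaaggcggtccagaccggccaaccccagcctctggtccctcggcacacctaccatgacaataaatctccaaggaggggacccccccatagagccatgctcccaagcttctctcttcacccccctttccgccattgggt
Rsad2: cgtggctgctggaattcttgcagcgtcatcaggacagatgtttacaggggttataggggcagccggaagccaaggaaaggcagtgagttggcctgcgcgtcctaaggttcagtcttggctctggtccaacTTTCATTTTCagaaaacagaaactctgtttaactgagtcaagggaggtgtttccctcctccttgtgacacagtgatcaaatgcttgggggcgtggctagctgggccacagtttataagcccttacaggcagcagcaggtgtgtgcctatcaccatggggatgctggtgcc
Phf11d: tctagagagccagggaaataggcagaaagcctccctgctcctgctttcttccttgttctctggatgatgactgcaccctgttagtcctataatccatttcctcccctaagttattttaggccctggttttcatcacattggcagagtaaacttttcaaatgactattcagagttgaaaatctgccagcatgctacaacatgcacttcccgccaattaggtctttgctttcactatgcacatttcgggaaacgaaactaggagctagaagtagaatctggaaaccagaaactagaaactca
Irgm2: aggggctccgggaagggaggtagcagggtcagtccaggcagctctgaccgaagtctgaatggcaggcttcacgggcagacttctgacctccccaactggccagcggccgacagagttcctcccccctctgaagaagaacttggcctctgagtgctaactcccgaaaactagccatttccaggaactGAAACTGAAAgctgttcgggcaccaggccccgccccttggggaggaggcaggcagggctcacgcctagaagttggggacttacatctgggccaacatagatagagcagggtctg
Igtp: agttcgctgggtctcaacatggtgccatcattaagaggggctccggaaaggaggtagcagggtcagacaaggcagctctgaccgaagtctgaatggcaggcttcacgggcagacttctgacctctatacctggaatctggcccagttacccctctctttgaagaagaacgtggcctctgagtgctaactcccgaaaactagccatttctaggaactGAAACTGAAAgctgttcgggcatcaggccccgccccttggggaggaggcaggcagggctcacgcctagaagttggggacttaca
Rsad2, Irgm2 and Igtp each held 1 match, in Rsad2 on the opposite strand and in both GTPase genes with the same 10 letters. The pattern does not occur in the windows shown for Oasl1 and Phf11d. Around the match the Irgm2 and Igtp windows are nearly the same sequence, so they do not count as separate observations.

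Over gene classes the element was unevenly spread. It was present in 3.44% of all 32851 promoters of the RefSeq table and in 618 of 15691 measured genes with a promoter there (3.94%). Among genes at least 1 log2 unit higher in clone 2 and above all 3 other arrays it was present in 76 of 753 (10.1%), and among the matching lower genes in 20 of 675 (2.96%). Of the listed antiviral effectors 16 of 30 held it (53.3%), of the interferon-inducible GTPases 7 of 7, of the MHC class I genes 5 of 17 (29.4%) and of the nucleic acid sensors 2 of 11. A second motif, the STAT element TTCNNNGAA, was present in 8.3% of all promoters and 9.02% of measured genes, in 9.56% of the same higher genes and in 4 of the 7 GTPase genes. The sterol element TCACNCCAC, searched on both strands, was present in 1.24% of all promoters and 1.43% of measured genes, in 2.12% of the higher and 1.33% of the lower members outside the range (9 of 675), and in 1 of 17 sterol genes (5.88%). Neither the Nsdhl nor the Insig1 window held it. Only this pattern was searched, so sites with other letters or outside the window were not counted. These matches describe letters in short windows and were not tested.

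Most members lay outside the range of the other 3 arrays, but for the controls the rule nearly fixed this. A member can fail to clear both controls only where MOCK and WT are at least 2 log2 units apart, as in 37 genes. Clone 1 was the array left free to overlap. Clone 2 lay above MOCK, WT and clone 1 in 957 of the higher genes (4.91% of all genes) and below all 3 in 838 of the lower genes (4.3%). The distance was at least 1 log2 unit from each of the 3 arrays in 410 higher and 275 lower genes. For comparison, MOCK and WT, which share no knockout, stood at least 1 log2 unit apart in 855 genes (4.38%), and clone 1 was that far above the same controls in 746 genes (3.82%) and below in 574 (2.94%). The contrast widened with size. At 3 log2 units or more clone 2 was higher in 61 genes and lower in 21, while MOCK and WT were that far apart in 0 genes, and at 5 or more the counts for clone 2 were 9 and 3. The mean of 2 arrays varies less than 1 array does, so the MOCK and WT count is not a matched measure of chance. Both knockout comparisons use the same control arrays, so their values are set side by side and not correlated.

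The split between directions rests on the normalization. In the values as deposited clone 2 was at least 1 log2 unit higher in 2353 genes and lower in 365, and the median difference over all genes was 0.25 log2 units there against -0.02 after quantile normalization. The 75th percentile of the deposited signals was 8.87 in WT, 9.26 in MOCK, 9.39 in clone 1 and 9.60 in clone 2, so WT and clone 2 were the extremes. Below, a signal is called dim when it lies under the 75th percentile of the 5222 negative control features of its array, which was 6.27 in clone 2, 6.37 in clone 1, 6.62 in MOCK and 6.55 in WT. Where every array on the lower side was dim, that side was set to this level or to its own signal where higher, and the fold is given as "at least". Of the members outside the range of the other arrays, 695 higher and 558 lower genes were above this level on their higher side, and only these are described by fold. Where 4 signals follow without names, their order is clone 2, clone 1, MOCK, WT. Their controls were dim in 217 of the higher genes and clone 2 was dim in 94 of the lower ones. List counts below stand beside 5.35% higher and 4.53% lower over all genes. Among genes above background on at least 1 array these shares were 8.13% and 6.60%. Counts of a few genes are not read as a result about a list.

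**Figure D1:**
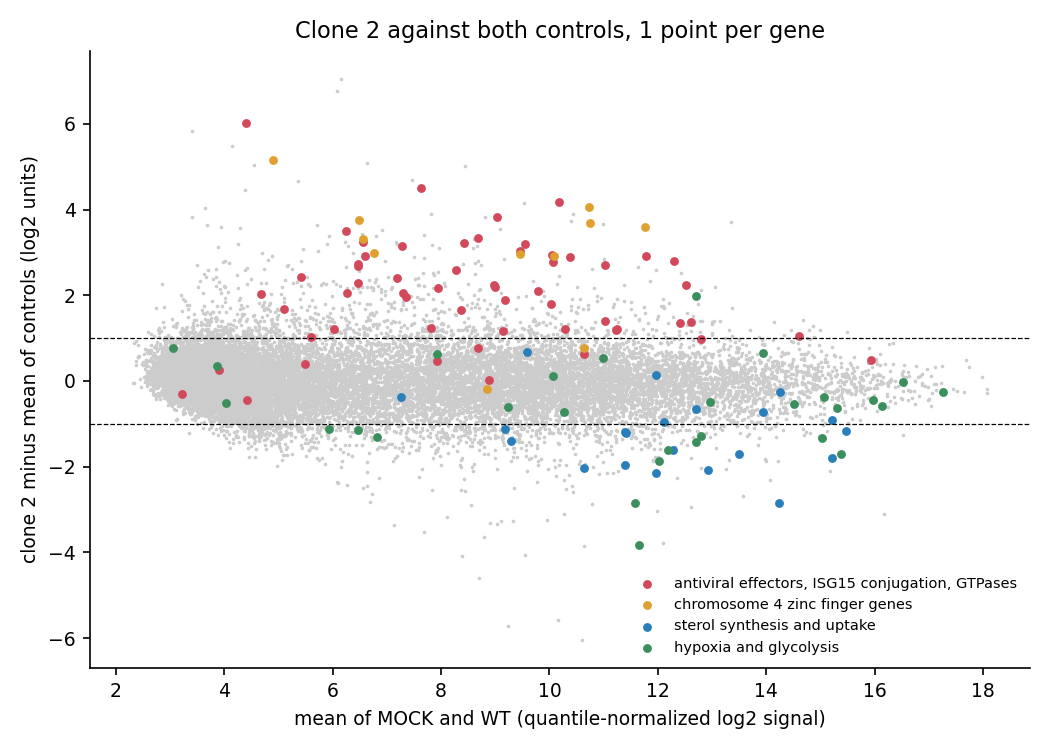
Each point is 1 of 19505 genes, with the mean quantile-normalized log2 signal of MOCK and WT on the x axis and clone 2 minus that mean on the y axis. Dashed lines mark 1 log2 unit. Genes of the antiviral, ISG15 conjugation and GTPase lists and the chromosome 4 zinc finger genes lie mostly above the upper line, and most sterol genes lie on or below the lower one.

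Mgat5, the targeted gene, had a log2 signal of 7.30 in clone 2, 7.37 in clone 1, 8.23 in MOCK and 8.65 in WT. Both clones lay below both controls, and clone 2 was 2.2-fold lower than the control mean (-1.14 log2 units, or -0.66 in the values as deposited). Where the probes lie relative to the edited site was not determined here, so the transcript level checks the sample titles only in part.

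Interferon-stimulated antiviral genes formed the largest listed group above the controls. Of 41 antiviral effectors measured, 32 were at least 1 log2 unit higher in clone 2, 0 were lower, and all 32 lay above clone 1 as well as both controls. The list median was 2.03 log2 units for clone 2, 0.09 for clone 1 and 0.03 for MOCK minus WT, beside -0.02 over all genes for clone 2. The count was 33 against WT alone, 31 against MOCK alone and 35 in the deposited values. Oasl1, a relative of the 2'-5' oligoadenylate synthetases, stood at 10.42 in clone 2, 5.58 in clone 1, 4.61 in MOCK and 4.18 in WT, and was at least 14.3-fold higher in clone 2. All 3 other arrays were dim and clone 2 alone was above background. Rsad2, which encodes viperin, an enzyme that makes a chain-terminating nucleotide, stood at 12.13 in clone 2, 8.66 in clone 1, 7.89 in MOCK and 7.38 in WT (22.6-fold higher). Mx1 and Mx2 encode dynamin-like GTPases that trap viral nucleocapsids. Mx1 stood at 9.74 in clone 2, 5.68 in clone 1, 6.58 in MOCK and 5.92 in WT (at least 8.93-fold higher), and Mx2 at 9.80, 6.33, 6.59 and 6.52 in the same order. In each of these genes clone 2 was far above the highest of the other 3 arrays.

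Other branches of the same response were higher as well. Ifit1, which binds viral RNA lacking a host cap, stood at 12.74 in clone 2, 9.25 in clone 1, 9.36 in MOCK and 9.73 in WT (9.13-fold higher), and Trim30a, a ubiquitin ligase of the TRIM family, at 12.01, 8.79, 8.84 and 8.52 in the same order. The oligoadenylate synthetases, which make the activator of RNase L, included Oas1g (2.58 log2 units above the controls), Oas1a (2.39) and Oasl2 (2.25). Oas3, dim in both controls, was at least 2.4-fold higher, and Oas2, dim in WT alone, stood at 9.50 in clone 2, 7.18 in clone 1, 6.79 in MOCK and 6.40 in WT. Smaller differences were found for Eif2ak2, the RNA-activated kinase PKR (1.22), and for Bst2, the tetherin that holds virions on the cell surface (1.06). The 9 measured effectors that did not reach 1 log2 unit ran from Samhd1 (0.98) and Ifitm3, which had log2 signals of 16.42, 15.99, 15.98 and 15.90 and was high on every array, to Epsti1, which was dim on all 4. Ifit2, a close relative of Ifit1, was among them, at 8.91 in clone 2, 8.78 in clone 1, 8.71 in MOCK and 9.06 in WT, and clone 2 lay inside the range of the other arrays. Phf11d and Ifit3 need a caution. Phf11d stood at 12.85 in clone 2, 7.91 in clone 1, 7.90 in MOCK and 10.17 in WT and Ifit3 at 15.10 in clone 2, 11.30 in clone 1, 11.43 in MOCK and 13.17 in WT, so the controls were 2.27 and 1.74 log2 units apart, although clone 2 was above both in each gene.

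The ISG15 system attaches the ubiquitin-like protein ISG15 to other proteins, and all 5 of its measured genes were higher, with a median of 2.10 log2 units in clone 2 and -0.05 in clone 1. Usp18, the protease that removes ISG15 and also dampens receptor signalling, stood at 14.34 in clone 2, 10.37 in clone 1, 10.09 in MOCK and 10.26 in WT (18-fold higher). Isg15 itself stood at 9.30 in clone 2, 7.34 in clone 1, 7.83 in MOCK and 6.88 in WT (3.86-fold higher), and the conjugating enzyme Ube2l6 at 11.21, 8.92, 9.03 and 8.91 in the same order. Clone 2 was the highest array in all 3, and the other arrays were within 1 log2 unit of each other. The remaining members were the ligase Herc6 (2.10) and the activating enzyme Uba7, which was dim on the other 3 arrays (at least 1.56-fold higher).

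Sensors of foreign nucleic acid were higher in part. Of 15 measured, 6 were higher and 0 lower, with a median of 0.76 log2 units, and 9 were higher in the deposited values. Ifih1, which encodes the double-stranded RNA sensor MDA5, stood at 12.72 in clone 2, 9.40 in clone 1, 9.77 in MOCK and 9.32 in WT (9.02-fold higher), and Ddx58, which encodes RIG-I, at 14.31, 12.84, 11.53 and 11.75 in the same order. Clone 1 lay between the controls and clone 2 for Ddx58 but within the range of the controls for Ifih1. The others were the RIG-I relative Dhx58, dim on the other 3 arrays (at least 5-fold higher), Ifi204 (2.59), the DNA sensor Cgas (1.87) and the endosomal RNA receptor Tlr3 (1.44).

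**Figure D2:**
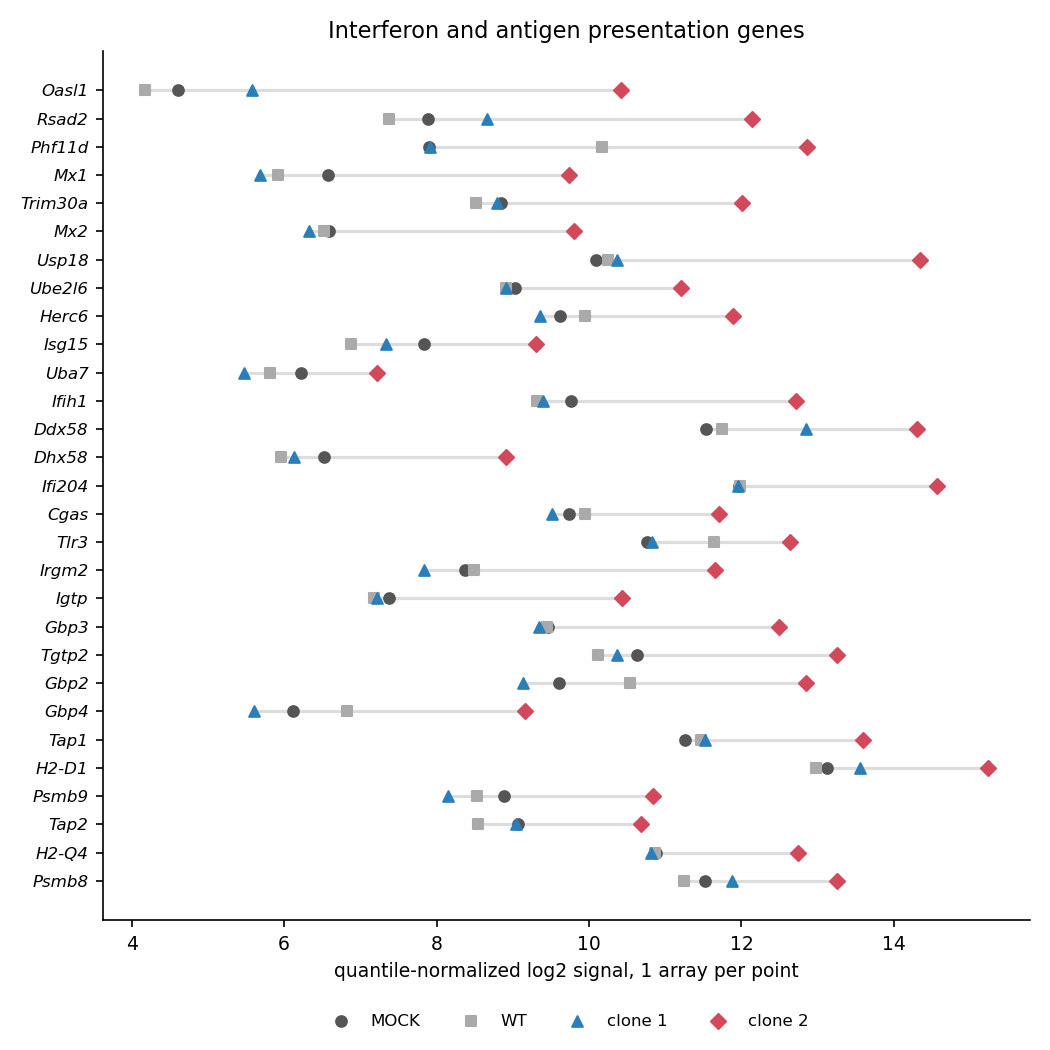
Quantile-normalized log2 signals of 29 interferon and antigen presentation genes, 1 point per array, with the antiviral genes at the top, then the ISG15, sensor, GTPase and MHC class I genes. Clone 2 is the highest array for every gene drawn, and the genes were picked as those with the largest differences of their lists.

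The interferon-inducible GTPases, which attack the membranes around intracellular pathogens, were higher in 11 of 12 measured genes, with a median of 2.49 log2 units in clone 2, -0.51 in clone 1 and -0.25 for MOCK minus WT. Irgm2 stood at 11.66 in clone 2, 7.83 in clone 1, 8.38 in MOCK and 8.49 in WT (9.34-fold higher). Igtp stood at 10.44, 7.22, 7.38 and 7.18 and Gbp3, a guanylate-binding protein, at 12.49, 9.35, 9.46 and 9.45 in the same order. In all 3 the controls and clone 1 were within 1 log2 unit of each other and clone 2 was well above. The exception was Gvin1, at 8.38 in clone 2, 3.87 in clone 1, 7.56 in MOCK and 8.28 in WT, where clone 2 was near WT and clone 1 was dim.

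Genes of antigen presentation by MHC class I were higher in part. Of 20 class I genes, 12 were higher and 0 lower, with a median of 1.24 log2 units in clone 2 and 0.13 in clone 1. Tap1, a subunit of the peptide transporter, stood at 13.60 in clone 2, 11.52 in clone 1, 11.26 in MOCK and 11.48 in WT (4.69-fold higher), and H2-D1, a class I heavy chain, at 15.23, 13.55, 13.12 and 12.98 in the same order (4.54-fold higher). The immunoproteasome subunits Psmb9 (2.13), Psmb8 (1.87) and Psmb10 (1.61) were higher, and the heavy chain H2-K1, already high in the controls, stood at 15.98, 14.74, 14.74 and 14.84. Heavy chain genes are close copies, so the array may not separate them fully. Of 8 class II genes 7 were dim on every array, so class II could not be compared.

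Upstream components of the pathway were higher in part. Of 18 transcription factors and receptors 5 were higher and 0 lower, with a median of 0.53 log2 units. Of these 5, Batf2 was dim on all 4 arrays and Irf7 was dim in clone 2. Stat2 stood at 12.99 in clone 2, 10.03 in clone 1, 10.64 in MOCK and 11.02 in WT (4.47-fold higher), Irf1 at 12.88, 10.13, 11.00 and 10.91 (3.81-fold higher) and Irf9 at 9.58, 7.83, 7.86 and 7.92 (3.22-fold higher) in the same order, and clone 2 was the highest array for each. Stat2 and Irf9 encode subunits of the factor that binds the interferon response element. Irf7 stood at 5.14 in clone 2, 6.46 in clone 1, 3.19 in MOCK and 5.06 in WT, dim in both controls and in clone 2, and clone 2 lay below clone 1. Ifnb1, which encodes interferon beta, was dim on all 4 arrays (5.05, 4.56, 4.21 and 4.72 in the same order).

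Chemokines that attract T cells were among the widest differences. Cxcl10 and Cxcl11 are ligands of CXCR3. Cxcl10 stood at 17.06 in clone 2, 14.25 in clone 1, 13.46 in MOCK and 13.23 in WT (13.1-fold higher) and Ccl5 at 12.63, 9.79, 9.05 and 8.56 (14.1-fold higher) in the same order. Cxcl11 was dim on every array but clone 2, at 9.23, 3.64, 3.34 and 3.45 (at least 6.27-fold higher). In all 3 clone 2 was above the others. Clone 1 was 0.90 log2 units above the control mean for Cxcl10 and 0.98 for Ccl5. For Cxcl11 clone 1 and the controls were dim, so their order is not read. Of 20 chemokines measured 6 were higher and 0 lower (median 0.60 log2 units), or 9 in the deposited values, and 10 were dim on every array. The 6 included Ccl7, which recruits monocytes, at 14.17, 13.34, 12.66 and 12.63.

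Ligands of immune receptors gave few members. Of 19 checkpoint and NK cell ligands 2 were at least 1 log2 unit higher and 2 lower, which is near the shares over all genes (5.35% and 4.53%). One of the higher genes, Cd80, was dim on all 4 arrays, and in the deposited values 5 were higher and 1 lower. Signals of Cd274, the gene for the PD-1 ligand PD-L1, were 9.21 in clone 2, 6.31 in clone 1, 6.69 in MOCK and 6.30 in WT. It was just above background in MOCK and dim in WT and clone 1, and clone 2 was the highest array. Ulbp1, a ligand of the activating receptor NKG2D, stood at 8.70, 10.38, 10.79 and 10.33 in the same order (3.64-fold lower), and Cd276 at 7.73, 10.02, 8.76 and 9.52 (2.66-fold lower). Clone 2 lay below every other array in both.

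Genes of the NF-kB pathway were higher in 5 of 20 and lower in 1, with a median of 0.38 log2 units. Tnfaip3, which encodes the feedback inhibitor A20, stood at 10.03 in clone 2, 7.64 in clone 1, 7.82 in MOCK and 7.88 in WT (4.52-fold higher), and Nfkbie, an inhibitor of NF-kB that was dim on all arrays but clone 2, at 8.34, 5.54, 5.85 and 6.29 in the same order (at least 3.38-fold higher). The receptor adaptor Traf1 (1.68) and the apoptosis inhibitor Birc3 (1.16) were higher, and Bcl3 was lower (-1.14). The fifth higher gene, Il6, was dim on all 4 arrays. In the deposited values 7 were higher and 0 lower. Among 18 genes of inflammasomes and related proteases 4 were higher and 1 lower, or 6 and 0 in the deposited values. Casp4, the sensor of cytosolic lipopolysaccharide, was higher (1.79), as was the cytokine gene Il18, dim on the other 3 arrays (at least 2.47-fold higher), and Casp1, the inflammasome protease, was lower at 9.98 in clone 2, 11.49 in clone 1, 11.04 in MOCK and 11.24 in WT.

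**Figure D3:**
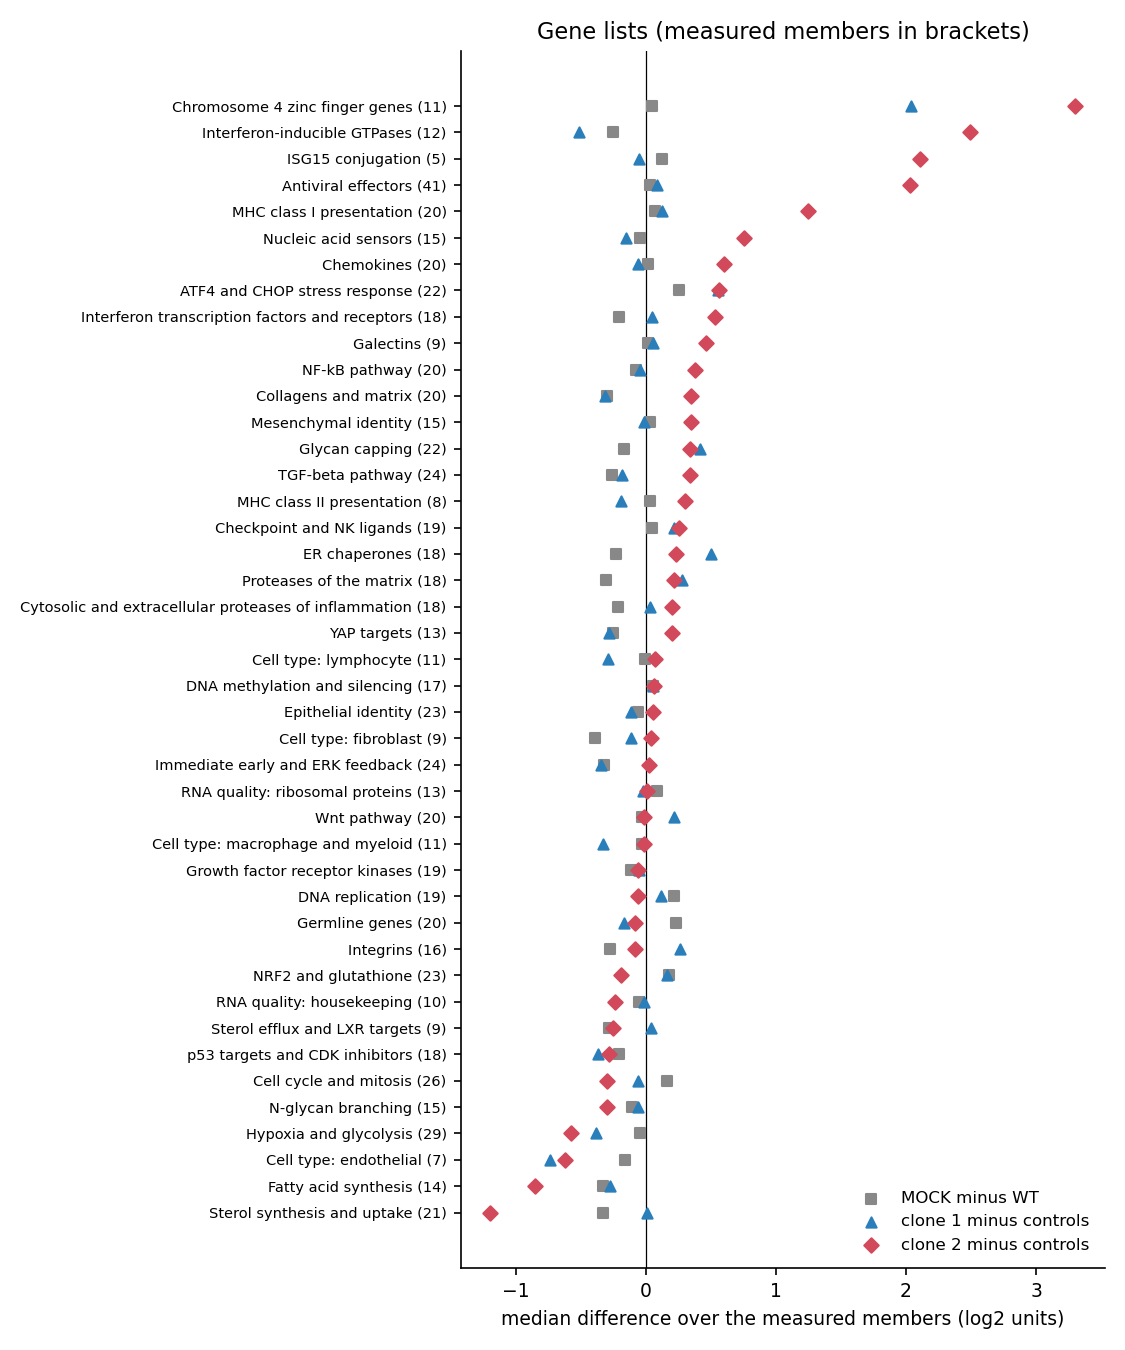
Median difference over the measured members of each of 43 gene lists (number measured in brackets), for clone 2 minus controls, clone 1 minus controls and MOCK minus WT, in log2 units on the x axis. The chromosome 4 zinc finger, GTPase, ISG15 and antiviral lists are the highest for clone 2 and the sterol list the lowest, at -1.19.

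Cholesterol synthesis genes were the clearest group below the controls. Of 21 sterol synthesis and uptake genes 13 were at least 1 log2 unit lower in clone 2 and 0 higher. All 13 lay below clone 1 as well as both controls and were bright. The list median was -1.19 log2 units for clone 2, 0.01 for clone 1 and -0.33 for MOCK minus WT. The count was 16 against WT alone and 11 against MOCK alone. In the deposited values it was 8 lower and 1 higher with a median of -0.68. Nsdhl, a sterol demethylase that lies on chromosome X, stood at 11.39 in clone 2, 13.38 in clone 1, 14.07 in MOCK and 14.40 in WT (7.19-fold lower). Fdps, which makes farnesyl diphosphate, stood at 9.81, 11.57, 11.85 and 12.08 (4.44-fold lower), and Cyp51, the lanosterol demethylase, at 13.42, 14.85, 15.11 and 15.31 in the same order (3.46-fold lower). Clone 2 was the lowest array in each, and clone 1 lay just below both controls. Off chromosome X 12 of 19 were lower, with a median of -1.19.

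The lower members spanned the pathway. Upstream were Hmgcs1 (-1.17 log2 units), Mvk (-1.12), Pmvk (-1.41), Mvd (-1.96) and Idi1 (-1.60), which build the isoprene unit. Downstream were Lss (-1.70), Msmo1 (-1.19) and Dhcr7 (-1.21), which close and trim the sterol rings. Insig1, a sterol-responsive regulator that retains the SREBP complex in the endoplasmic reticulum, stood at 10.85 in clone 2, 12.48 in clone 1, 12.83 in MOCK and 13.01 in WT (4.19-fold lower), and Stard4, a sterol carrier, at 8.61, 10.09, 10.34 and 10.94 in the same order. The regulators themselves were near the controls, at -0.27 for Srebf2, which encodes SREBP-2, and 0.15 for Scap, its escort. Ebp, the sterol isomerase on chromosome X, lay on the other side, at 0.67.

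Fatty acid synthesis genes, controlled in part by SREBP-1, were lower in 3 of 14 with a median of -0.85 log2 units in clone 2 and -0.28 in clone 1. The 3 were the acetyl-CoA synthetase Acss2 (-1.32) and the desaturases Fads2 (-1.26) and Fads1 (-1.21). The count was 7 against WT alone, 2 against MOCK alone and 0 in the deposited values, where the median was -0.32. Of 9 genes listed for sterol efflux or for the sterol receptor LXR, 1 was lower and 0 higher. That gene, Apoe, was dim on all 4 arrays, and 0 of the 4 bright genes were lower.

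Hypoxia and glycolysis genes were lower in 11 of 29 and higher in 1, with a median of -0.57 log2 units in clone 2 and -0.39 in clone 1. In the deposited values 5 were lower and 4 higher, with a median of -0.13. Egln3, an oxygen-sensing prolyl hydroxylase and a target of HIF, stood at 7.82 in clone 2, 10.81 in clone 1, 11.90 in MOCK and 11.40 in WT (14.2-fold lower). Bnip3, a mitophagy receptor, stood at 8.72, 10.44, 11.80 and 11.34 in the same order (7.22-fold lower), and Pdk1, the kinase that shuts off pyruvate dehydrogenase, at 10.17, 11.15, 11.93 and 12.13 (3.63-fold lower). In all 3 clone 1 lay between the controls and clone 2. Pfkl, the liver-type phosphofructokinase, was about as low in clone 1 as in clone 2, at 10.58 in clone 2, 10.64 in clone 1, 12.29 in MOCK and 12.10 in WT. Pgk1, at 13.69, 14.46, 15.36 and 15.41 in that order, lies on chromosome X. Ndrg1, a gene that hypoxia also induces, lay on the other side at 14.67, 13.47, 12.56 and 12.84, and Gapdh (-0.27) and Pkm (-0.01) were near the controls. Hif1a was at 0.65.

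**Figure D4:**
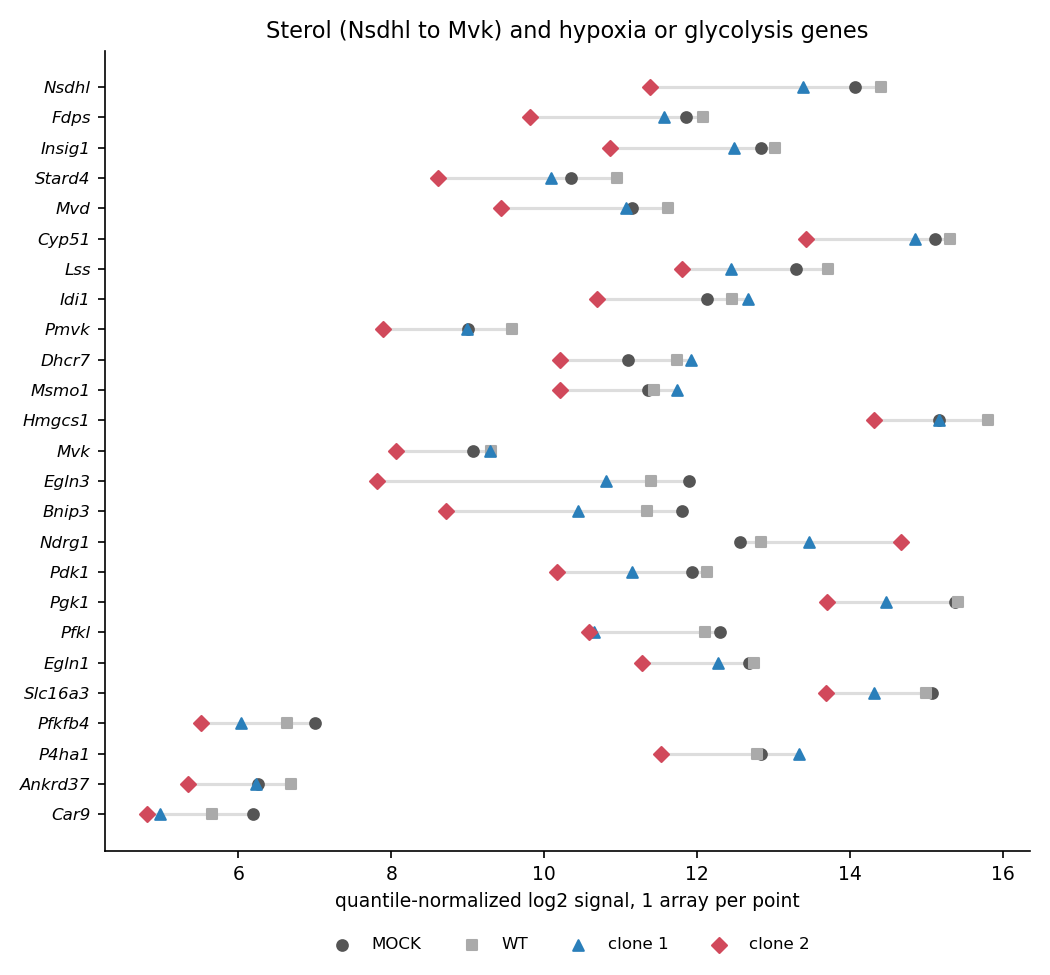
Quantile-normalized log2 signals, 1 point per array, of the 13 sterol genes (Nsdhl to Mvk) and of 12 hypoxia or glycolysis genes (Egln3 to Car9) at least 1 log2 unit off the controls. Clone 2 is the lowest array for all but Ndrg1, where it is the highest, and clone 1 lies close to clone 2 for Pfkl and Car9.

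The integrated stress response, driven by the factors ATF4 and CHOP, was higher in 7 of 22 genes and lower in 0, with a median of 0.56 log2 units in clone 2 and 0.55 in clone 1. Nupr1, a stress-induced chromatin protein, stood at 14.13 in clone 2, 11.76 in clone 1, 10.25 in MOCK and 10.56 in WT (13.2-fold higher). Ddit3, which encodes CHOP, stood at 12.63, 12.00, 11.39 and 11.13 (2.59-fold higher) and Chac1, which degrades glutathione, at 10.19, 9.88, 8.16 and 7.16 (5.75-fold higher) in the same order. Both clones lay above both controls in all 3, and clone 2 was higher than clone 1. The count was 5 against MOCK alone and 11 in the deposited values. Chaperones of the endoplasmic reticulum were higher in 2 of 18, or 4 in the deposited values. The 2 were Herpud1 (1.71) and Dnajc3 (1.10). All 18 were bright, and the count is near the 8.13% of bright genes that were higher. Genes of the oxidative stress factor NRF2 were split, with 3 of 23 higher and 1 lower, beside 5.35% and 4.53% of all genes. In the deposited values 5 were higher and 1 lower, and the median turned from -0.19 to 0.28. Nqo1, a quinone reductase, stood at 11.83 in clone 2, 10.00 in clone 1, 8.55 in MOCK and 8.79 in WT (8.92-fold higher).

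Cell cycle genes stayed near the controls. Of 26 mitotic genes 1 was lower, Ccna2, which encodes cyclin A2, at 12.15 in clone 2, 13.63 in clone 1, 13.86 in MOCK and 14.09 in WT (3.54-fold lower), and 0 were higher. Their median was -0.30 log2 units, and 0.22 in the deposited values, so its direction turned with the scaling. Of 19 replication genes 1 was lower, the polymerase gene Pola1 on chromosome X (-1.52), or 3 against MOCK alone. Cdkn1a, the cyclin kinase inhibitor p21, stood at 12.70 in clone 2, 12.40 in clone 1, 10.46 in MOCK and 10.55 in WT, above the controls in both clones, while of the other p53 targets and inhibitors Cdkn2c (-1.59), Zmat3 (-1.04) and Perp, which was dim on all 4 arrays, were lower. For that list of 18 the counts of 1 higher and 3 lower were 3 and 1 in the deposited values, where its median turned from -0.28 to 0.11, and 2 and 5 against WT alone and 1 and 1 against MOCK alone. Of 13 YAP target genes 4 were higher and 0 lower, and against MOCK alone 3 were higher and 2 lower. Clu, which encodes the secreted chaperone clusterin, was the widest of them, at 13.46 in clone 2, 12.90 in clone 1, 8.18 in MOCK and 8.71 in WT (32.4-fold higher), followed by the adaptor gene Ajuba at 11.45, 10.10, 8.26 and 9.21 in the same order. Both clones exceeded both controls in Clu and Ajuba.

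Matrix genes went both ways. Of 20 collagens and matrix proteins 5 were higher and 4 lower (8 and 3 in the deposited values), with a median of 0.35 log2 units. Thbs1, which encodes thrombospondin 1, stood at 12.39 in clone 2, 10.65 in clone 1, 9.26 in MOCK and 11.02 in WT, but MOCK and WT were 1.76 log2 units apart there. Dcn, the proteoglycan decorin, was lower at 10.89, 8.83, 12.81 and 14.35 in the same order, with the controls 1.55 apart and clone 1 lowest. Of 18 matrix proteases and inhibitors 5 were higher and 1 lower. Mmp2, gelatinase A, stood at 14.04 in clone 2, 9.74 in clone 1, 11.53 in MOCK and 12.90 in WT, high in clone 2 and low in clone 1. Mmp3, stromelysin 1, was the second widest lower gene by difference, at 3.53 in clone 2, 9.91 in clone 1, 8.04 in MOCK and 10.42 in WT (at least 7.79-fold lower), and it was dim in clone 2 alone, though the controls were 2.38 apart. Integrins were near the controls, with 1 of 16 lower, Itga3.

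N-glycan branching genes beside Mgat5 were lower in clone 2 in part. Of 15 measured 4 were lower and 0 higher, with a median of -0.30 log2 units, or -0.08 in the deposited values, where 1 was lower and 1 higher, and 2 were lower against MOCK alone. The 4 were Mgat5 and 3 mannosidases that act before it in the Golgi. Man2a2 stood at 7.68 in clone 2, 9.14 in clone 1, 9.29 in MOCK and 9.39 in WT (3.16-fold lower), Man2a1 at 10.90, 12.14, 11.83 and 12.32 (2.26-fold lower) and Man1a at 7.67, 11.15, 9.19 and 9.12 (2.8-fold lower) in the same order. Clone 2 was the lowest array in all 3, and for Man1a clone 1 was the highest. Of 22 genes that extend or cap glycans 3 were higher, Gcnt1 (1.81), Gne (1.51) and St3gal1, which was dim on all 4 arrays and higher in clone 1 than in clone 2. In clone 1 7 of the 22 were higher, with a median of 0.42 log2 units against 0.34 in clone 2. For clone 2 the count was 8 in the deposited values and 6 with each array centred on its median. Among 9 galectins and partners 2 were higher, beside 5.35% of all genes, or 4 in the deposited values. The 2 included Lgals3bp, a secreted ligand of galectin-3, at 14.54 in clone 2, 12.43 in clone 1, 12.93 in MOCK and 12.55 in WT (3.48-fold higher).

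Growth factor and patterning pathways held scattered members. Over all genes 5.35% were higher and 4.53% lower, so the small counts here are not read as results about these lists. Met, the receptor of hepatocyte growth factor, was 3.51-fold lower at 8.03 in clone 2, 9.61 in clone 1, 9.82 in MOCK and 9.88 in WT, and of 19 receptor kinases 3 were lower and 1 was higher, Ddr1, which was dim on all 4 arrays. In the deposited values 2 were lower and 3 higher. Of 24 TGF-beta pathway genes 6 were higher and 1 lower (4 and 1 against MOCK alone, 6 and 3 against WT alone), led by the transcriptional inhibitor Id2 at 12.47, 10.09, 10.57 and 10.56 in the same order (3.74-fold higher). Of 20 Wnt genes 2 were higher, or 4 in the deposited values. Wnt5a, a non-canonical ligand, stood at 8.99 in clone 2, 6.71 in clone 1, 6.90 in MOCK and 7.04 in WT (4.05-fold higher), and Rspo3 at 7.48, 9.14, 5.13 and 5.12 in the same order, dim in both controls and higher in clone 1 than in clone 2. Of 24 immediate early genes 2 were higher and 3 lower, against MOCK alone 5 and 3 and against WT alone 1 and 4, and 7 were at least 1 log2 unit apart between MOCK and WT.

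Single genes with the largest differences mostly lay outside these pathways. Tex101, a germ cell surface protein, was the highest in clone 2, with signals of 13.20 in clone 2, 5.53 in clone 1, 5.53 in MOCK and 6.77 in WT, and WT was just above background while MOCK was not. Dppa2, a chromatin factor of pluripotent and germ cells, stood at 12.84, 7.25, 5.71 and 6.45 in the same order (at least 76.4-fold higher). Of 20 listed germline genes, which do not include Tex101, 17 were dim on every array. Among the 20 Dppa2 alone was higher, and 1 was lower, with clone 2 inside the range of the other arrays. Dlk1, an imprinted gene for a Notch ligand relative, stood at 9.64 in clone 2, 4.32 in clone 1, 4.21 in MOCK and 4.08 in WT (at least 8.31-fold higher). Apod, a lipocalin, stood at 14.34, 9.64, 10.08 and 10.79 in the same order (14.9-fold higher), and Serpinf1, a secreted inhibitor of vessel growth, at 13.68, 11.25, 10.02 and 9.05 (17.7-fold higher). Clone 2 was the highest array for all 5. Ebf1, a B cell and stromal transcription factor, stood at 12.16 in clone 2, 5.49 in clone 1, 7.82 in MOCK and 7.09 in WT (26-fold higher), with clone 1 dim.

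Other genes with wide differences included some that were dim in the controls and some that were not. Cox7b2, a cytochrome oxidase subunit typical of testis, was dim on every array but clone 2, at 9.58 in clone 2, 4.55 in clone 1, 4.46 in MOCK and 4.62 in WT (at least 8.01-fold higher). Cdsn, the skin adhesion protein corneodesmosin, was above background in MOCK but not in WT, at 11.73, 8.89, 7.19 and 6.09 in the same order, and Cln3, a lysosomal membrane protein, was dim in both controls, at 10.03, 7.87, 4.88 and 5.86 (at least 10.9-fold higher). Clone 1 was above both controls in Cdsn and Cln3, and below clone 2. Nxf3, an RNA export factor gene on chromosome X, stood at 11.71 in clone 2, 9.06 in clone 1, 7.42 in MOCK and 8.23 in WT (14.8-fold higher), and lay in the end of that chromosome where lower members outnumbered higher ones. Slc7a7, an amino acid transporter, and Cldn9, a tight junction claudin, were dim on the other 3 arrays and were at least 2.15-fold higher and at least 1.57-fold higher.

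The chromosome 4 zinc finger cluster was the list with the highest median. Of its 11 genes 9 were higher in clone 2, with a median of 3.30 log2 units, and 10 in clone 1, with a median of 2.04. Zfp980 stood at 14.77 in clone 2, 13.47 in clone 1, 10.79 in MOCK and 10.66 in WT (16.5-fold higher) and Zfp600 at 14.43, 13.38, 10.50 and 10.99 (12.9-fold higher) in the same order, and Zfp981 was dim in both controls, at 10.06, 8.40, 4.86 and 4.95 (at least 11.1-fold higher). Both clones were above both controls in each, with clone 2 the higher. These genes are close copies of one another, so their signals may not be independent.

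Among the widest lower genes were several that were dim in clone 2. Gfra2, which binds neurturin and presents it to the RET kinase, stood at 4.56 in clone 2, 4.88 in clone 1, 9.28 in MOCK and 11.92 in WT (at least 20.1-fold lower), dim in both clones. Cd99, an adhesion protein, stood at 4.58, 8.43, 9.48 and 10.85 in the same order (at least 14.9-fold lower), and Efnb2, the ligand ephrin-B2, at 5.49, 7.11, 10.48 and 8.62 (at least 9.74-fold lower). Clone 1 lay below the controls in these genes too, and the controls themselves were 2.64, 1.38 and 1.86 log2 units apart. Sema3a, a repulsive guidance cue, was 13.7-fold lower at 8.33 in clone 2, 12.13 in clone 1, 12.38 in MOCK and 11.83 in WT, and there the other 3 arrays were close together. So were they for Mpv17, an inner mitochondrial membrane protein, at 8.95, 12.55, 11.99 and 11.99 in the same order (8.2-fold lower). Gng2, a G protein subunit, was 14.4-fold lower.

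Further lower genes divided into those where clone 1 was near the controls and those where it was not. Cda, the cytidine deaminase of pyrimidine salvage, stood at 7.15 in clone 2, 10.38 in clone 1, 10.56 in MOCK and 9.97 in WT (8.61-fold lower), and Zfhx4, a homeodomain factor, at 6.72, 9.61, 10.01 and 9.91 in the same order (9.46-fold lower). Slco4a1, an organic anion transporter, stood at 7.93, 10.35, 10.43 and 11.15 (7.29-fold lower). In these 3 clone 2 was the only array well below the rest. Mmp16, a membrane-bound matrix protease, and Ramp3, a receptor activity modifier, were dim in clone 2 alone, at 5.15 in clone 2, 9.39 in clone 1, 8.98 in MOCK and 8.62 in WT for Mmp16 (at least 5.77-fold lower) and at least 2.68-fold lower for Ramp3. Prkar2b, a regulatory subunit of protein kinase A, stood at 9.66 in clone 2, 11.82 in clone 1, 12.70 in MOCK and 12.52 in WT (7.73-fold lower), with clone 1 between the controls and clone 2. Ikzf2, the transcription factor Helios, was dim in both clones, at 5.66, 6.12, 8.49 and 8.61 in the same order (at least 4.86-fold lower). Brinp3 was dim in clone 2 and stood at 5.84, 7.89, 7.89 and 10.30, with WT 2.41 log2 units above MOCK. Klf8, Ptchd1 and Lpar4, all on chromosome X, were dim in clone 2 and were at least 1.82-fold lower, at least 6.19-fold lower and at least 4.32-fold lower.

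In some genes clone 1 lay on the other side of the controls. Igf2, an imprinted fetal growth factor gene, stood at 6.06 in clone 2, 13.64 in clone 1, 10.09 in MOCK and 8.56 in WT, so that it was dim in clone 2 and highest in clone 1. Cavin2, a coat protein of caveolae, stood at 5.69, 11.02, 8.83 and 9.22 in the same order, and Trp53i11 at 4.12, 10.13, 8.09 and 9.31. Both were dim in clone 2 alone. Txnip, which binds and inhibits thioredoxin, was higher in clone 2, at 14.64 in clone 2, 9.31 in clone 1, 10.92 in MOCK and 11.06 in WT, and lowest in clone 1, with the controls 0.14 apart. The clones were not tested against each other.

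Members were not spread evenly over the chromosomes, and chromosome X stood out. Among the 9275 genes above background on at least 1 array, 8.13% were higher and 6.60% lower in clone 2. Of 315 such genes on X, 69 were lower (21.9%) and 39 higher (12.4%), with a median of -0.27 log2 units. In clone 1, 3.17% of the 315 were lower and 9.52% higher, against 3.47% and 5.09% of the 9275. Between MOCK and WT 5.08% of the 315 differed. In blocks of 45 genes along the chromosome, drawn after the values were seen, the signs separated. In the first 2 blocks, from Vamp7 to Rbmx2, 28 of 90 were higher and 0 lower, with a median of 0.63. In the last 4, from Flna to Mid1, 63 of 180 were lower and 6 higher, with a median of -0.79, and the medians of these 4 blocks ran from -0.59 to -0.88. The medians of the same 180 genes were -0.19 in clone 1 and 0.02 for MOCK minus WT, and -0.28 for clone 2 in the deposited values. Lower genes of that end included Mid1, a ubiquitin ligase with signals of 13.08 in clone 2, 15.84 in clone 1, 16.42 in MOCK and 15.94 in WT (8.6-fold lower), and the kinase gene Wnk3. Part of the second block is a cluster of Slx copies that was higher in clone 1 too, with a median over 20 neighbours of 1.66 in clone 2 and 1.88 in clone 1. The first block, which ends before most of that cluster, had 9 of 45 higher and 0 lower, with a median of 0.52.

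**Figure D5:**
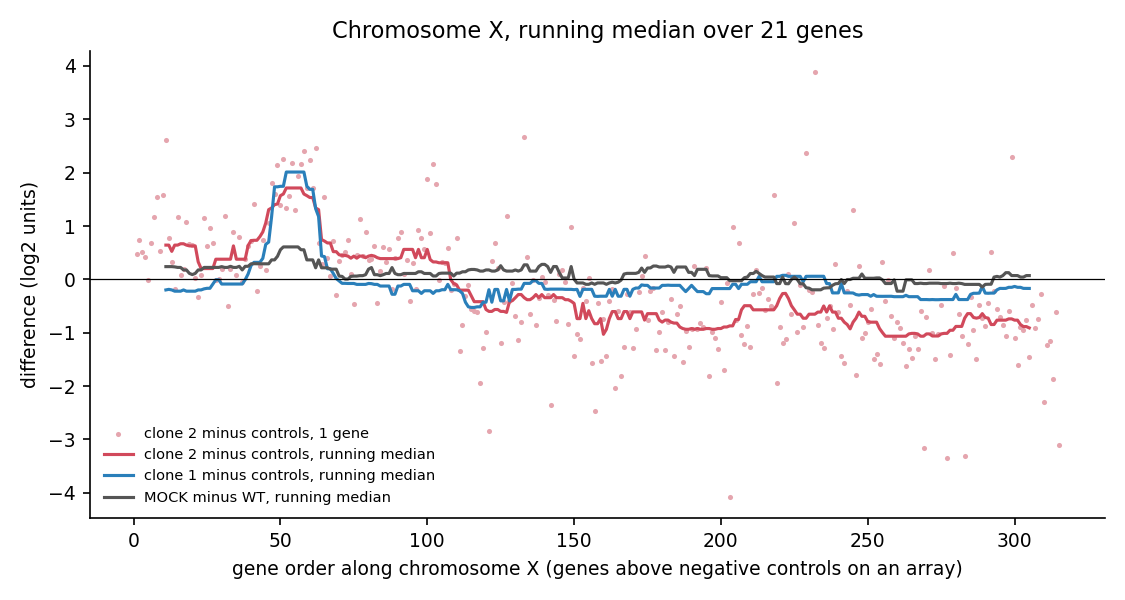
Differences of 315 chromosome X genes in gene order, with points for clone 2 minus controls and lines for running medians over 21 genes, in log2 units on the y axis. The clone 2 line is above 0 over the first 2 blocks and below 0 over the last 4. Over the last 180 genes the medians are -0.79 for clone 2, -0.19 for clone 1 and 0.02 for MOCK minus WT.

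On the autosomes runs were compared at a fixed 20 genes and no blocks were drawn, so the length of a run was not measured. Over 20 neighbouring genes the highest were the chromosome 4 run from Aadacl4fm4 to Zfp984, with medians of 1.53 in clone 2 and 1.06 in clone 1, and a run on chromosome 6 from Exoc4 to Ptn, at 0.82 and -0.14. The latter held Tmem140 (3.43), Fam180a (3.10) and Ptn (2.19), which encodes the growth factor pleiotrophin. The lowest were the chromosome X run from Luzp4 to Iqsec2 (-1.10), a chromosome 3 run from Kcnmb2 to Dcun1d1 (-0.84 in clone 2 and -0.17 in clone 1) that holds the kinase gene Pik3ca (-0.86), and a chromosome 5 run from E130309D02Rik to Baiap2l1 (-0.77 and 0.29). Among the bright genes of chromosome 14, 14.8% were higher and 1.31% lower, but MOCK and WT differed in 13.4% of them, with a median of -0.46 for MOCK minus WT. Genes of chromosome 15 were higher in 12.6% and lower in 3.64%, but in clone 1 too 9.52% were higher and 0.28% lower. The medians of that chromosome were 0.19 in clone 2 and 0.30 in clone 1. Genes of chromosome 3 were higher in 6.48% and lower in 11.2%, against 3.67% and 3.89% in clone 1. Over all bright genes the clone 2 medians were -0.36 on chromosome 13, -0.31 on chromosome 18 and 0.34 on chromosome 14, beside -0.27 on X. In clone 1 they were 0.06, -0.12, 0.18 and -0.16 in the same order. Copy number was not measured.

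Most markers of other cells were dim, except those of fibroblasts. Of 23 epithelial genes 22 were dim on every array and only Tjp1, a tight junction gene, was above background, although the cells are labelled as adenocarcinoma, and 10 of 15 mesenchymal genes were above background on every array. Of 11 myeloid markers 10 were dim on every array, as were 10 of 11 lymphocyte and all 7 endothelial markers. For the myeloid list the log2 of the summed signal was 8.38 in clone 2, 9.02 in MOCK and 9.19 in WT, and for the lymphocyte list 8.04, 7.91 and 8.19. Of 9 fibroblast markers 4 were above background on every array, 4 were dim on every array, and 2 were lower in clone 2, Dcn and Col3a1. The log2 of that list's summed signal was 13.88 in clone 2, 14.16 in clone 1, 14.54 in MOCK and 15.55 in WT. The part of other cell types in the results was not tested. The summed signal of the ribosomal protein genes was 19.62 in clone 2 and 19.60 in MOCK on the log2 scale, and of 13 such genes 1 was lower, Rps4x on chromosome X.

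At the threshold the members shade into the rest. The genes just inside on the higher side were Myadm, Armc2 and Azin2 and those just outside Abat, Catsperg1 and Gpatch1, all within 0.01 of 1 log2 unit. On the lower side Podn, Itga3 and Lrrc8b were just inside and Plxnb3, Mrc1 and Tbx3 just outside. Abat, Armc2, Azin2, Catsperg1, Podn, Plxnb3 and Mrc1 were dim on all 4 arrays, and Itga3 lay inside the range of the other arrays, at 7.12 in clone 2, 9.53 in clone 1, 7.01 in MOCK and 9.24 in WT.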

How the data were processed

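The authors' deposited values are log2 signals, 1 per probe set and array, made with the Transcriptome Analysis Console per the submitters' processing notes. How they were normalized and filtered, and the array's build, were not given in the sources used here. Scanner files were not used. Groups follow the titles and the design text, because a cell label on all 4 samples names the knockout. Each column matched 1 sample and 0 were left without one.

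Of 28846 features 6640 control features were left out, and the other 22206 were quantile-normalized over the 4 arrays. Of these, 19572 had a gene name and 2634 had none, giving 19505 genes. The probe set with the highest mean stood for a gene. Differences are clone 2 minus the mean of MOCK and WT, with no test. Normalization was tested on simulated data with few features shifted, equally many up and down. The arrays here differ from that setting, so the simulation does not bear on the split between directions. Python 3.11.15, pandas 2.3.3, numpy 2.4.6 and matplotlib 3.10.9 were used.

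The genes named are Mgat5, the 25 per direction with the largest difference among those outside the range of the other arrays and above background, up to 6 per list by size, up to 6 per direction opposite in clone 1 and 3 beside each threshold, passing over predicted, olfactory and vomeronasal genes and pseudogenes. Smaller list members and the genes in chromosome stretches named beside them were chosen after their values were seen. The members and lists were chosen with earlier results of these data known. Names and promoters are RefSeq's (GRCm38.p6). Alternatives were the deposited values, median centring, normalization without clone 1, each control alone, no dim genes, averaged probe sets and a threshold of 2 log2 units.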

Additional observations from a re-analysis of the deposited data

Results flagged for a closer look

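Some genes lay at least 1 log2 unit above the control mean in one clone and at least 1 log2 unit below it in the other. The difference between the clones was not tested, since each is a single array, and both use the same controls. Counted were genes outside the range of the other arrays and above background on their higher side. Predicted, clone-named, olfactory and vomeronasal genes and pseudogenes were passed over. Of 19505 genes measured, 695 higher and 558 lower ones met these conditions before symbols were passed over. Among those kept, 24 were higher in clone 2 and lower in clone 1, and 19 the reverse. Over all genes, without these filters, clone 1 was lower in 2.94% and higher in 3.82%. No share matched to the filters was computed, so the counts are not read as an excess. Those named here are the 6 with the largest difference per direction.

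Higher in clone 2 and lower in clone 1 were Ebf1, at 4.70 log2 units in clone 2 and -1.97 in clone 1, and the interferon-induced Phf11d, at 3.82 and -1.12. Txnip, an inhibitor of thioredoxin, stood at 3.66 and -1.68, and Phf11b, a neighbour and relative of Phf11d, at 3.10 and -1.14. The antiviral Ifit3 stood at 2.80 and -1.0, and Itgbl1, a secreted integrin-like protein, at 2.39 and -1.86, where MOCK and clone 1 were dim. Ebf1 was dim in clone 1 too. For Phf11d and Ifit3 clone 1 lay near MOCK, at 7.91 against 7.90 and at 11.30 against 11.43. Only WT was well above clone 1 there, at 10.17 and 13.17, so clone 1 was not clearly below both controls.

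Lower in clone 2 and higher in clone 1 were 6 genes that were all dim in clone 2, so their differences there rest partly on background and their order by size is not measured. Trp53i11 stood at -4.59 in clone 2 (at least 5.40-fold lower) and 1.43 in clone 1, and the lysophosphatidic acid receptor gene Lpar4 at -4.07 (at least 4.32-fold) and 1.60. Cavin2, a caveolar coat protein, stood at -3.33 (at least 6.75-fold) and 1.99. Igf2, an imprinted growth factor gene, stood at -3.26 (at least 8.31-fold) and 4.31. Hcfc1r1, with WT dim too, stood at -2.82 (at least 1.34-fold) and 2.37, and Niban1 at -2.55 (at least 2.94-fold) and 1.22.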

How the results depend on the processing

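In the values as deposited the counts were 2353 higher and 365 lower (2171 and 345 outside the range of the other arrays), with 1908 genes apart between MOCK and WT. All 957 higher genes outside the range stayed members there, but 345 of the 838 lower ones did. With dim genes left out, MOCK and WT differed in 424 genes and clone 1 was off in 794, against 1320 over all genes. At 2 log2 units the counts were 210 and 70 (198 and 67 outside the range). The counts of higher and lower members stayed within 1.5 times under the other alternatives, at 1260 and 1190 against WT alone and 1173 and 1023 against MOCK alone. Of 251 named or listed genes past 1 log2 unit, 218 stayed past it as deposited, 233 against WT alone and 230 against MOCK alone. Itga3 turned from -1.0 to 0.11 against MOCK alone and was -2.11 against WT alone. The cause of these changes was not tested. No paired analysis was possible because clone 2 has a single array and the labels give no shared replicate numbers. The single clone 2 array leaves its own spread unmeasured, and dim signals bound many folds.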
